A study of Mus musculus with 7 samples.

Results

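The 10 genes described here encode the Nr4a nuclear receptors (Nr4a1, Nr4a2, Nr4a3), the AP-1 subunits of the Fos and Jun families (Fos, Fosb, Jun, Junb, Jund), and the transcription factors Egr1 and Atf3. They were chosen by name, and every probe set that the platform annotation assigns to one of these genes alone was taken. This gave 11 probe sets, 2 for Jund and 1 for each other gene, out of 25335 annotated probe sets, and no probe set shared between a member and another gene was found. The measurements came from 7 Affymetrix arrays, 1 channel each, of hematopoietic stem cells (HSCs), the rare marrow cells that sustain all blood lineages. Of these arrays 3 carried cells of Ahr knockout mice (Ahr-KO) and 4 carried cells of wild-type mice (WT). All mice were C57BL/6J, 8 weeks old, and the labels name no treatment. HSCs were taken from lineage-depleted marrow by SLAM-family surface markers, and their RNA was amplified to biotinylated cDNA. The labels name neither the Ahr allele nor its deleted part, and they do not say whether each array holds a separate mouse or a pool. P-values therefore weigh differences against the scatter of these arrays alone, part of which may be technical.

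Immediate early genes are transcribed within minutes of a stimulus, without new protein synthesis, when kinase cascades activate factors such as SRF and CREB that already sit on their promoters. Their products then switch on later genes: Fos and Jun proteins pair into the AP-1 dimer, EGR1 is a zinc finger factor, and the NR4A proteins are orphan nuclear receptors whose activity follows their abundance because no ligand is needed. In HSCs, Nr4a1, Nr4a3 and Egr1 are known for holding cells in quiescence, and loss of Junb in HSCs is known to cause myeloproliferation. The same genes are also known to be induced by tissue dissociation and cell sorting. AhR, the product of Ahr, is a ligand-activated factor that binds DNA at sites with the core GCGTG.

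The arrays set the frame for these values. Median intensity was 16.89 to 22.1, and the level below which 95% of 1108 probe sets for olfactory receptors lay, genes that HSCs should not express, was 33.8 to 42.8 and served as a background mark. The probe set of Ahr itself read 34.1, 137 and 26.4 on the Ahr-KO arrays against 31.3, 57.9, 14.9 and 20.5 on the WT arrays. Since the deleted part of Ahr is not named, this signal is no check of genotype, and Ahr-KO stands for what the label says. Of 14 HSC markers 12 were measured, none was at or below the mark on all arrays, and 6 exceeded it on all 7, among them Kit and Cd34. Of the 12, 8 had a lower mean in Ahr-KO and 4 a higher one, with a median log2 difference of -0.525 and 1 unadjusted limma p under 0.05, that of Slamf1. Slamf1, which encodes the sorting marker CD150, was higher in Ahr-KO, by 2.58 ± 0.97 on the log2 scale (SE; limma adjusted p = 0.963), and exceeded the mark on 3 of 3 Ahr-KO arrays and 1 of 4 WT arrays, so the size of that difference is partly set by background. Gata2, Meis1 and Hlf, factors of stem cell maintenance, differed by -2.11, -0.77 and -0.66 (limma adjusted p = 0.963 for each) and exceeded the mark on all 7. Gata2 was at -1.31 without WT replicate 3. Mecom, Hoxb5 and Cd34 of the same list differed in the other direction, by 1.30, 0.48 and 0.46, and Mllt3 by -0.03. Without WT replicate 2 Mecom and Hoxb5 were at -0.73 and -1.38. Among markers of cells the sort should remove, all 14 granulocyte and monocyte markers had a higher mean in Ahr-KO, against 48.4% of all genes. Their median log2 difference was 1.09, and 1 had an unadjusted limma p under 0.05, against 4.21% of all probe sets. These signs rested in part on single arrays. Without WT replicate 1, S100a8, S100a9, Camp, Ngp and Lcn2 were at -0.14, -0.49, -1.03, -0.61 and -0.04. Csf1r was at -0.74 without Ahr-KO replicate 2. The mean log2 level of the 14 markers was 7.28 to 9.29 in Ahr-KO and 4.67 to 9.42 in WT, with the lowest value on WT replicate 1.

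Promoter sequences are shown for the 3 receptor genes and for Fos, which include the genes with the largest differences between genotypes. They are the 250 bases before the RefSeq start of each gene in GRCm38.p6, 5′ to 3′ on the gene's strand, for Nr4a1 at chr15:101266596-101266845 (plus strand), Nr4a2 at chr2:57124004-57124253 (minus strand), Nr4a3 at chr4:48045055-48045304 (plus strand) and Fos at chr12:85473640-85473889 (plus strand). Capitals mark matches on either strand to TGACG, the core of the cyclic AMP response element bound by CREB, to the EGR site GCGNGGGCG, and to the AhR core GCGTG. Neighbouring matches that touch or overlap run together.
Nr4a1: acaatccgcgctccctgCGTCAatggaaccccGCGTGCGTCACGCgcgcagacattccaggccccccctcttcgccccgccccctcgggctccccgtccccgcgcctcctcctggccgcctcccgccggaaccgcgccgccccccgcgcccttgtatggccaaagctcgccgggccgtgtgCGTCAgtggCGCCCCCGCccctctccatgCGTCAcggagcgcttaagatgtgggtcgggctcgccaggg
Nr4a2: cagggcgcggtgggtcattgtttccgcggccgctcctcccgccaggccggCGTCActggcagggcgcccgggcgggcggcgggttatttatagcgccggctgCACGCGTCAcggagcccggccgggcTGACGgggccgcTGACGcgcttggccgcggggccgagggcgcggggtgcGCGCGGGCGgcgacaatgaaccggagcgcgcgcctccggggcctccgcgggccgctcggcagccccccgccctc
Nr4a3: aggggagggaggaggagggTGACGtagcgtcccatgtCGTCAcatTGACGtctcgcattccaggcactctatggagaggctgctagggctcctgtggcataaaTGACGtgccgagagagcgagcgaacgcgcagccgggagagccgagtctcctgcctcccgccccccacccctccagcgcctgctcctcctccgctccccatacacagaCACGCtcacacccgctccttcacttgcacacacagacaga
Fos: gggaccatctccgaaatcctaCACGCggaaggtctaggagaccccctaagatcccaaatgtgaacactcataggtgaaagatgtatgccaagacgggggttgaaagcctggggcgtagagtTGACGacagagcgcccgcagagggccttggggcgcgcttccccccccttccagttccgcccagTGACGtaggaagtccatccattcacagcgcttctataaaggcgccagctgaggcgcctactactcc
RefSeq windows of 300 bases, 250 before and 50 after the start, were found for 9 of the 10 genes. Egr1 had no window, so the counts below do not cover it. All 3 Nr4a windows held 4 matches to TGACG each, and 0.231% of the 32851 windows held at least 4. That cut-off is the receptor genes' own count, so the share is no test of them. The windows were not matched for base composition. The Fos window held 2, those of Fosb, Junb and Atf3 held 1 each, and those of Jun and Jund held none. At least 1 match was present in 7 of the 9 windows and in 20.8% of all windows. The AhR core was found in the same 7 windows, with 3 matches for Nr4a3, 2 each for Nr4a1, Junb and Atf3 and 1 each for Nr4a2, Fos and Fosb, and in 32.4% of all windows. The EGR site was found for Nr4a1, Nr4a2 and Fosb and in 5.55% of all windows. In Nr4a1 a match to TGACG on the minus strand lies between AhR cores on opposite strands and overlaps the second of them, and in Nr4a2 an AhR core overlaps a match to TGACG by its last base. The SRF CArG box, the full response element TGACGTCA, the AP-1 site TGANTCA and the NR4A site AAAGGTCA were found in no member window, and in 1.63, 1.79, 7.81 and 1.51% of all windows. A match is a run of letters and not a measured binding site, and these windows do not reach distal elements.

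No member differed between the genotypes past the threshold. Of the 11 probe sets, 0 had a limma adjusted p under 0.05, against 0.0% of all 25335, and 0 had an unadjusted p under 0.05, against 4.21%. In none of the 11 did the Ahr-KO and WT values separate fully, against 5.74% of all probe sets. The members with the largest differences were Nr4a2, Nr4a1 and Fos, each higher in Ahr-KO by over 1 log2 unit. Differences of at least 1 in that direction were thus found in 3 of 11 probe sets, against 11.9% of all. For the same 3 genes, 2 of the 3 Ahr-KO arrays lay above every WT array, an arrangement seen in 13.7% of all probe sets. A higher mean in Ahr-KO was found for 7 of the 11 probe sets, against 48.3% of all. Over the 10 genes, 7 had a higher mean in Ahr-KO, against 48.4% of all 22180 genes, and the median log2 difference was 0.55, against -0.03 for all genes. That median rested on single arrays: it was 0.15 without Ahr-KO replicate 1 and likewise without WT replicate 2. It was 0.34 when WT replicate 3 was dropped, and 0.83 when WT replicate 1 was. In RNA from a sorted population, fewer cells of a type and less RNA per cell cannot be told apart. Of 200 simulated 4-fold changes, larger than any seen among the members, 0% were recovered with this number of arrays, and 46.5% of 16-fold changes were.

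**Figure D1:**
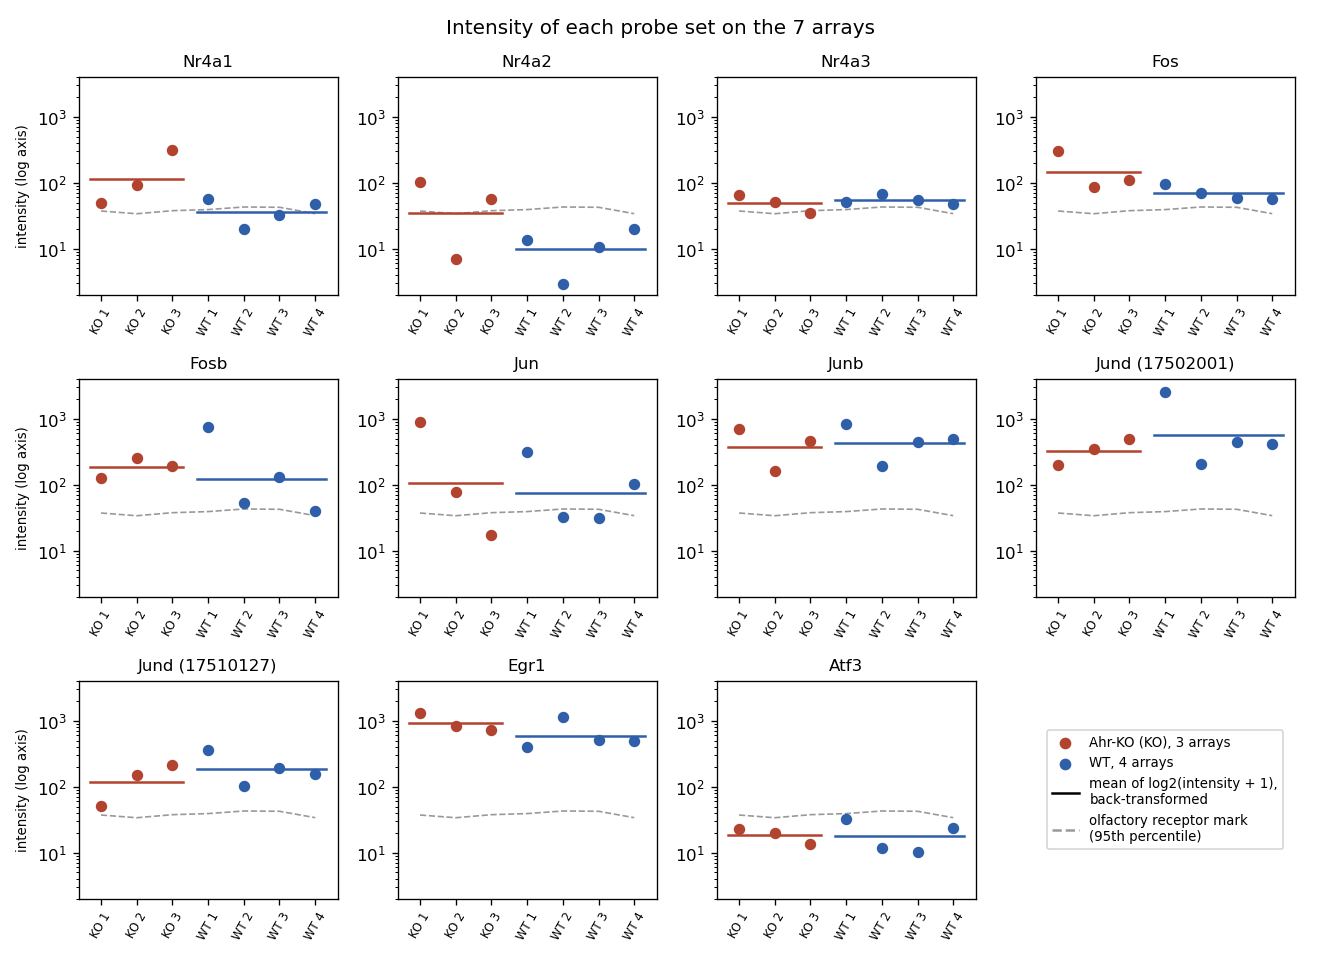
Intensity (log axis) of each of the 11 probe sets on the 3 Ahr-KO arrays (red) and the 4 WT arrays (blue); horizontal bars are back-transformed means of log2(intensity + 1) and the dashed line is the olfactory receptor background mark of each array. For Nr4a1, Nr4a2 and Fos 2 Ahr-KO arrays lie above all WT arrays, while Jund peaks on WT replicate 1 at 2584.

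Among the receptors, Nr4a1, which encodes NUR77, had an intensity of 49.4, 92.6 and 314 on Ahr-KO replicates 1 to 3 and of 55.8, 19.98, 32.9 and 47.5 on WT replicates 1 to 4. Replicates 2 and 3 of Ahr-KO were above every WT array, and Ahr-KO replicate 1 fell within the WT range. The difference on the log2 scale was 1.61 ± 0.71 (SE; 95% interval -0.04 to 3.26; limma adjusted p = 0.963), and an exact two-sided permutation test over the 35 splits of the arrays gave p = 0.0571, where the smallest possible is 0.0286. Without Ahr-KO replicate 3 the difference was 0.88. All 3 Ahr-KO arrays exceeded the background mark and 2 of the 4 WT arrays did, so the WT mean rests in part on signal at background.

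Nr4a2, which encodes NURR1, stood at 102, 6.92 and 57.4 on the Ahr-KO arrays against 13.4, 2.89, 10.4 and 19.8 on the WT arrays. It exceeded the background mark on Ahr-KO replicates 1 and 3 and on no WT array, and Ahr-KO replicate 2 lay inside the WT range. The log2 difference of 1.76 ± 0.98 (SE; 95% interval -0.50 to 4.02; limma adjusted p = 0.963) compared values of which most were at background, so its size depends on the pseudocount and was 1.12 with 16 in place of 1. Without Ahr-KO replicate 1 it was 1.0, and without Ahr-KO replicate 2 it was 2.86.

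Nr4a3, which encodes NOR1, had no array that stood far above the others. It stood at 65.7, 50.9 and 34.6 on the Ahr-KO arrays against 51.8, 66.7, 55.1 and 47.0 on the WT arrays, and every array but Ahr-KO replicate 3 exceeded the background mark. The difference on the log2 scale was -0.16 ± 0.44 (SE; 95% interval -1.18 to 0.85; limma adjusted p = 0.981). Its sign turned without Ahr-KO replicate 3, where it was 0.078. Residual SD on the log2 scale was 0.33 for Nr4a3, and 95.6% of the 3946 probe sets within 0.5 log2 units of its mean level had a larger one.

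The Fos family was represented by Fos and Fosb, whose products need a Jun partner to bind DNA. Fos stood at 304, 87.2 and 111 on the Ahr-KO arrays against 95.2, 68.9, 59.3 and 56.8 on the WT arrays. Every array exceeded the background mark, Ahr-KO replicates 1 and 3 lay above all WT arrays, and Ahr-KO replicate 2 lay below WT replicate 1 and above the other 3. The difference on the log2 scale was 1.05 ± 0.56 (SE; 95% interval -0.23 to 2.34; limma adjusted p = 0.963; exact permutation p = 0.0857). It was 0.52 without Ahr-KO replicate 1.

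Fosb did not follow Fos. Its values were 128, 250.2 and 192 on the Ahr-KO arrays against 755, 51.9, 130.2 and 40.2 on the WT arrays, so the highest and the lowest arrays were both WT. The Ahr-KO arrays lay within a 1.95-fold range and the WT arrays within an 18.8-fold range. The difference on the log2 scale was 0.60 ± 1.0 (SE; 95% interval -1.70 to 2.90; limma adjusted p = 0.968), and it was 1.48 without WT replicate 1 and 0.08 without WT replicate 4.

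In the Jun family, Jun, the founding AP-1 subunit and a target of JNK kinases, stood at 888, 78.4 and 17.3 on the Ahr-KO arrays against 309, 32.8, 31.1 and 103.9 on the WT arrays. The 3 Ahr-KO arrays included both the highest and the lowest value of the series. Jun exceeded the background mark on 4 of the 7 arrays and lay below it on Ahr-KO replicate 3 and on WT replicates 2 and 3, so differences that involve those arrays are partly set by background. The log2 difference of 0.50 ± 1.37 (SE; 95% interval -2.66 to 3.67; limma adjusted p = 0.981) was -1.01 without Ahr-KO replicate 1 and 1.79 without Ahr-KO replicate 3.

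Junb, which restrains proliferation in several blood lineages, stood at 709, 159 and 464 on the Ahr-KO arrays against 832, 194, 445 and 488 on the WT arrays. The lowest array was Ahr-KO replicate 2 and the highest WT replicate 1, and the ranges of the genotypes overlapped over most of their length. The difference on the log2 scale was -0.21 ± 0.71 (SE; limma adjusted p = 0.986), and it was above 0 without Ahr-KO replicate 2, at 0.41, and again without WT replicate 1, at 0.11.

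Jund, the Jun gene least dependent on stimulation in most cells, had 2 probe sets. Probe set 17502001 stood at 198, 354 and 486 on the Ahr-KO arrays against 2584, 208, 439 and 420.0 on the WT arrays, and probe set 17510127 stood at 51.6, 148 and 211 against 360.1, 104, 194 and 157. Both put WT replicate 1 highest and Ahr-KO replicate 1 lowest. Both ranked the 7 arrays in the same order (Spearman's rho = 1.0, exact permutation p = 0.000397, the smallest possible; Pearson's r = 0.868, exact permutation p = 0.0169, and 0.961 without the arrays farthest from the median, Ahr-KO replicate 1 and WT replicate 1). Their log2 differences were -0.79 ± 0.86 and -0.64 ± 0.66 (SE; limma adjusted p = 0.963 for each). Without WT replicate 1 the first was -0.06, and without Ahr-KO replicate 1 the second was also -0.06.

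Egr1 was above the background mark on every array. It stood at 1319, 822 and 718 on the Ahr-KO arrays against 402, 1126, 516 and 490 on the WT arrays. All Ahr-KO arrays lay above WT replicates 1, 3 and 4, and WT replicate 2 lay above Ahr-KO replicates 2 and 3. The difference on the log2 scale was 0.66 ± 0.53 (SE; 95% interval -0.56 to 1.88; limma adjusted p = 0.963; exact permutation p = 0.171), and it was 0.98 without WT replicate 2, or 0.40 without Ahr-KO replicate 1. Atf3, a stress-induced repressor that dimerises with Jun proteins, stayed below the background mark on all 7 arrays, at 13.7 to 22.8 (Ahr-KO) and 10.1 to 32.4 (WT), so a difference was not detectable in it.

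**Figure D2:**
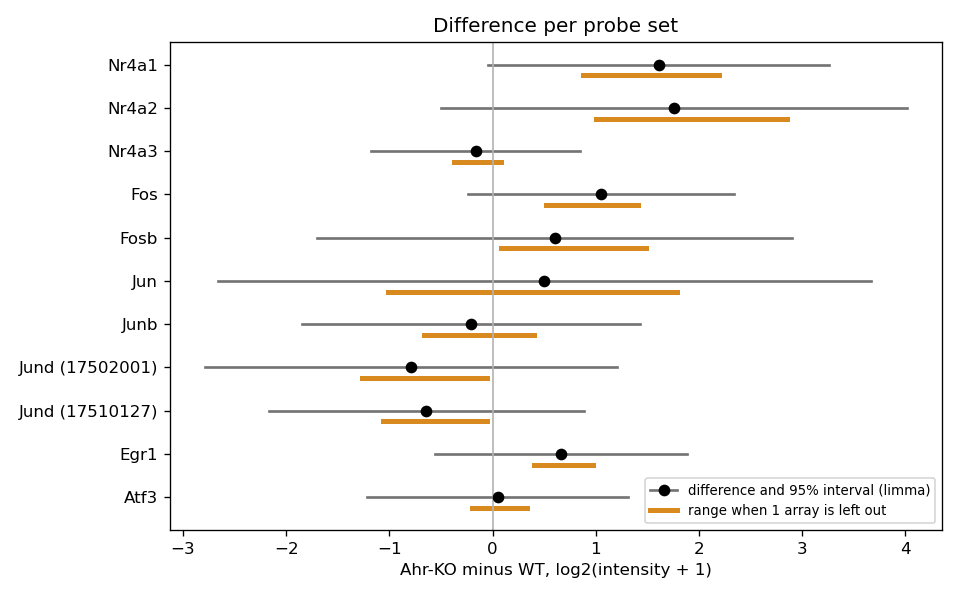
Difference between Ahr-KO and WT of each probe set in log2(intensity + 1), with the limma estimate (point), its 95% interval (grey line) and the range of estimates when single arrays are left out (orange). All 11 intervals include 0, and the orange range crosses 0 for Nr4a3, Jun, Junb and Atf3.

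The members did not rise and fall as 1 block across the arrays. Ahr-KO replicate 1 held the highest value of Nr4a2, Fos, Jun and Egr1, and WT replicate 1 held the highest value of Fosb, Junb, Jund and Atf3. Together these 2 arrays held the maximum of 8 of the 10 genes, where they held 14.1 and 14.3% of the maxima over all genes. The mean log2 level of the 10 genes was 7.55 on Ahr-KO replicate 1 and 7.46 on WT replicate 1, and 5.85 to 6.91 on the other 5 arrays. The lowest, 5.85, was WT replicate 2, which also had the smallest share of probe sets above the background mark (30.7%, against 34 to 44.9% elsewhere). By genotype this level averaged 7.01 ± 0.49 (SD, n = 3) for Ahr-KO against 6.51 ± 0.68 (SD, n = 4) for WT, a difference within the spread between arrays.

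**Figure D3:**
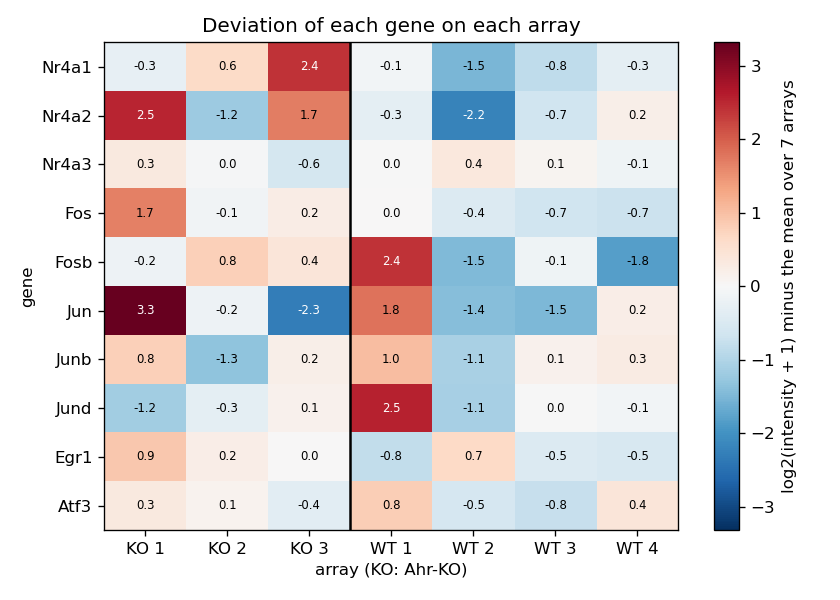
Deviation of each gene on each array from its own mean over the 7 arrays, in log2(intensity + 1), with red above and blue below the mean and a line between the Ahr-KO (KO) and WT arrays. Jun is 3.3 above its mean on Ahr-KO replicate 1, and Jund and Fosb are 2.5 and 2.4 above theirs on WT replicate 1.

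Among the 45 pairs of member genes, Pearson's r over the 7 arrays was positive for 31 and negative for 14, with a median of 0.247. By exact permutation 4 pairs had an unadjusted p under 0.05 and 0 passed after adjustment over the 45. Jund and Egr1 ran opposite to each other (r = -0.816, exact permutation p = 0.00794, adjusted p = 0.357; Spearman's rho = -0.857, exact permutation p = 0.0238), and r was -0.803 without Ahr-KO replicate 1 and WT replicate 1. Jun and Atf3 ran together (r = 0.785, exact permutation p = 0.0367, adjusted p = 0.514; rho = 0.786, p = 0.048), with r = 0.973 without Ahr-KO replicates 1 and 3, although Atf3 was below background. Nr4a1 and Nr4a3 ran opposite (r = -0.869, exact permutation p = 0.0175, adjusted p = 0.394; rho = -0.714, p = 0.0881), and this rested on Ahr-KO replicate 3 and WT replicate 2, without which r was -0.234. Nr4a2 and Fos (r = 0.748, exact permutation p = 0.0462, adjusted p = 0.514; rho = 0.536, p = 0.236) rested on Ahr-KO replicates 1 and 3, without which r was -0.172. For rho the smallest adjusted p over the 45 pairs was 0.793.

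Over the same 7 arrays, the genes most like Fos among 10138 named genes at or above the median level were Slc50a1 (r = 0.972), a sugar transporter gene, Mlxip (r = 0.969), which encodes a glucose-sensing transcription factor, and Defb15 (r = 0.952), a defensin gene. Those most like Egr1 were Ppp1r9b (r = 0.974), which encodes spinophilin, Tcf24 (r = 0.965) and Angptl4 (r = 0.947), an inhibitor of lipoprotein lipase. Those most like Nr4a1 were Map1a (r = 0.983), a microtubule-associated protein gene, Boll (r = 0.978) and Ttll5 (r = 0.971). Map1a exceeded the background mark on Ahr-KO replicates 2 and 3 alone and Ttll5 on Ahr-KO replicate 3 alone. Tcf24 and Angptl4 lay below it on WT replicates 1, 3 and 4, so these r values rest in part on background signal. Of the 10138 genes, 51, 14 and 45 reached r of at least 0.9 with Fos, Egr1 and Nr4a1. The named genes are the top of a search over only 7 arrays, in which unrelated genes can also reach high r. Whether these counts exceed chance was not tested, and no shared function is read from them.

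Other immediate early genes gave no call either. Of 36 listed genes 35 were measured, and 24 had a higher and 11 a lower mean in Ahr-KO, against 48.4% higher among all genes. The median log2 difference of the 35 was 0.22. None had values that separated the genotypes, against 5.74% of all probe sets, and 1, the bZIP repressor gene Nfil3, had an unadjusted limma p under 0.05, against 4.21% of all. Nfil3 stood at 17.6, 5.10 and 0.01 on the Ahr-KO arrays against 11.5, 18.3, 91.2 and 46.2 on the WT arrays. It exceeded the background mark on WT replicates 3 and 4 alone, so its fitted log2 difference of -2.72 ± 1.09 (SE; limma adjusted p = 0.963) compared mostly background signal and its size is not measured. With Ahr-KO replicate 3 left out it was -1.59. Next by p were Zfp36l1, which encodes an mRNA decay factor, at 2.04 ± 0.96 (SE), and Egr3 at 0.89 ± 0.49 (SE), which exceeded the background mark on 2 Ahr-KO arrays and no WT array. Of these 35 genes 11 peaked on Ahr-KO replicate 1, where Fos, Jun, Egr1 and Nr4a2 also peaked. On Ahr-KO replicate 2 there were 8 peaks and on WT replicate 1 there were 5. These arrays held 14.1, 13.4 and 14.3% of the maxima over all genes. One of the 11, the Krüppel-like factor gene Klf4, stood at 410.0 on Ahr-KO replicate 1 and at 9.22 to 15.8 on the other 6 arrays. It was chosen after its values were seen.

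**Figure D4:**
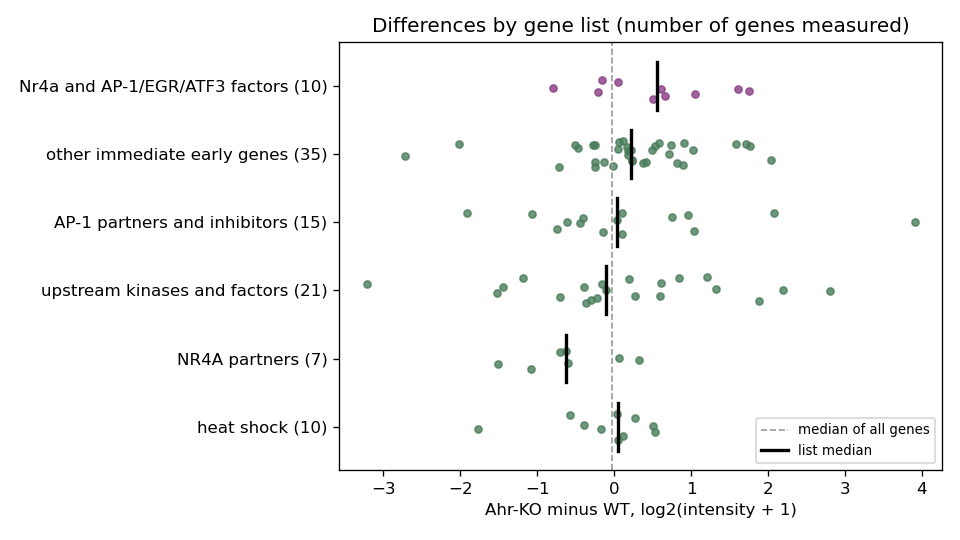
Difference between Ahr-KO and WT in log2(intensity + 1) for each measured gene (points) of 6 lists, with the median of each list (black bar) and the median of all genes (dashed line, at -0.03). The 10 factors described here have the highest median of the 6 lists drawn, 0.55, and points of every list lie on both sides of 0. Marker lists not drawn here had higher medians: granulocyte and monocyte (1.09) and mast cell and basophil (0.84).

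Among partners and competitors of AP-1, 8 of 15 measured genes had a higher and 7 a lower mean in Ahr-KO. The share of all genes with a higher mean was 48.4%. The median of the 15 was 0.04, and 1 gene, Maf, had an unadjusted limma p under 0.05, against 4.21% of all probe sets. Maf, which encodes a large bZIP factor, was the 1 gene of the 15 whose values did not overlap, against 5.74% of all probe sets. It stood at 14.9, 173 and 89.5 on the Ahr-KO arrays against 2.46, 3.10, 2.04 and 6.25 on the WT arrays. Its difference on the log2 scale was 3.91 ± 0.83 (SE; limma adjusted p = 0.961), with the WT arrays and Ahr-KO replicate 1 below the background mark. Atf7 differed by 2.08 ± 1.31 (SE), or 0.57 without Ahr-KO replicate 1, on which it stood at 1114. Ddit3, the stress gene encoding CHOP, differed by -1.92 ± 1.30 (SE), or -0.18 without Ahr-KO replicate 3. Atf7 lay below the mark on WT replicates 1 and 2 and Ddit3 on Ahr-KO replicate 3.

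Of 21 measured kinases and factors that act upstream of immediate early genes, 10 had a higher and 11 a lower mean in Ahr-KO. Over all genes 48.4% had a higher one. The median of the 21 was -0.10, and 2 genes, Mrtfa and Rps6ka5, had an unadjusted limma p under 0.05, against 4.21% of all probe sets. Mrtfa, a coactivator that carries actin signals to SRF, was lower on all Ahr-KO arrays, at 80.8, 138 and 11.9 against 418, 556, 279 and 885. Its difference on the log2 scale was -3.22 ± 0.86 (SE; limma adjusted p = 0.963) and between -3.92 and -2.20 with any 1 array left out. Rps6ka5, which encodes the kinase MSK1, differed by 2.20 ± 0.95 (SE) and Mapk9, which encodes JNK2, by 1.88 ± 0.85 (SE). Creb1, which encodes the factor that binds TGACG cores, stood at 507, 662 and 631 on the Ahr-KO arrays against 150.0, 4.71, 384 and 160 on the WT arrays and was named after its values were seen. Its difference was 2.81 ± 1.32 (SE; limma adjusted p = 0.963), and 1.5 without WT replicate 2. Mrtfa lay below the background mark on Ahr-KO replicate 3, Creb1 and Mapk9 on WT replicate 2, and Rps6ka5 on 4 of the 7 arrays. Mrtfa and Creb1 were the 2 genes of this list whose values did not overlap, against 5.74% of all probe sets.

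Of 7 measured genes whose products partner or counteract NR4A receptors, 2 had a higher and 5 a lower mean in Ahr-KO. A higher mean was found for 48.4% of all genes. The median of the 7 was -0.63, and 0 had an unadjusted limma p under 0.05, against 4.21% of all probe sets. Kdm1a, which encodes a histone demethylase, differed by -1.08 ± 0.78 (SE), or -0.42 without WT replicate 2. Rxrg and Rxra, retinoid X receptor genes, differed by -0.60 ± 0.46 and -0.70 ± 0.68 (SE), the first below background on every array and the second above it on 1.

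Heat shock genes, which respond to handling as immediate early genes do, had a higher mean in Ahr-KO for 6 and a lower one for 4. Of all genes 48.4% had a higher mean. The median of the heat shock genes was 0.05, and 0 had an unadjusted limma p under 0.05, against 4.21% of all probe sets. Their mean log2 level was 6.71 to 7.28 in Ahr-KO and 6.97 to 7.39 in WT, and on the 2 arrays with the highest level of the 10 members it was 7.28 and 7.19. Hspa1a and Hspa1b, both stress-inducible, were below the background mark on all 7 arrays. Hsph1, below the mark on Ahr-KO replicate 2 and WT replicate 2, differed by -1.77 ± 1.12 (SE), or -0.32 without Ahr-KO replicate 2. Hspa1a differed by 0.51 ± 0.52 (SE) and Hsp90aa1 by -0.39 ± 0.40 (SE). Hsp90aa1 was the 1 gene of the 10 measured whose values did not overlap, against 5.74% of all probe sets. The cochaperone gene Dnajb1, chosen after its values were seen, stood at 1225 on WT replicate 1, where Fosb, Jund and Junb peaked, and at 105 to 273 on the other 6 arrays. Bag3, chosen in the same way, stood at 458 on Ahr-KO replicate 1, 294 on WT replicate 1 and 31.7 to 120 elsewhere. Of the 10 heat shock genes measured, 2 peaked on Ahr-KO replicate 1, 1 on WT replicate 1 and 4 on WT replicate 4.

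No list of markers of other cells had its highest levels on Ahr-KO replicate 1 and WT replicate 1 together. Granulocyte and monocyte markers had a mean log2 level of 8.03 on Ahr-KO replicate 1 and 4.67 on WT replicate 1, the arrays with the highest member levels. Macrophage and dendritic markers stood at 4.28 and 5.79 there, and at 4.28 to 5.78 in Ahr-KO and 4.93 to 6.22 in WT as a whole, with Adgre1, C1qc and Itgax below background on all arrays. Stromal and endothelial markers stood at 4.78 to 6.05 in Ahr-KO and 4.35 to 6.05 in WT, B cell markers at 4.00 to 4.34 and 4.23 to 4.74, and T and NK cell markers at 4.60 to 5.33 and 4.18 to 4.85. Mast cell and basophil markers stood at 4.87 to 6.78 and 3.36 to 6.42, with a median log2 difference of 0.84, erythroid markers at 4.92 to 7.03 and 5.34 to 6.37, and megakaryocyte markers at 6.60 to 7.79 and 5.48 to 8.34. The part of these cells in the member values was not tested.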

How the data were processed

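Intensities were deposited by the authors as 1 linear value per probe set and array, and the submitters' processing notes name Affymetrix Expression Console; the summarization algorithm, background correction and normalization were not given in the sources at hand. Of 41155 rows, 25335 were annotated, 23521 of them with 1 symbol; 23328 matched RefSeq (GRCm38.p6) by Entrez ID. Intensities became log2(intensity + 1) and the genotypes were compared with limma 3.58.1 (R 4.3.3; lmFit, eBayes) over the 25335 rows, genotype as the only term, two-sided, Benjamini-Hochberg threshold 0.05. SEs and intervals are from that fit. Each gene was represented by its brightest probe set with 1 symbol. Permutation tests enumerated the 35 splits or 5040 orders of the arrays. For arrays, their number limits the precision. The fit was checked on simulated data drawn from each row's mean and spread, 200 changes per fold size.

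Members and lists (5 of related genes, 9 of markers) and the background mark were chosen with earlier results of these data known. Besides the members, up to 3 genes per related list with the smallest unadjusted p were named, and the 3 genes of highest r with Fos, Egr1 and Nr4a1; predicted genes were not eligible there. Alternatives covered normalization, pseudocount, filters, rows, variance prior, array weights, an unmoderated test, the replicate number as a block and leaving out arrays.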

Additional observations from a re-analysis of the deposited data

How the results depend on the processing

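No alternative gave a member, or any probe set, an adjusted p under 0.05 (limma, or the unmoderated test), so the counts of 0 held under all of them; before adjustment 1067 probe sets had p under 0.05, 954 to 1339 with single arrays left out, 572 and 495 under the filters on mean level and on background, where fewer rows were tested, and 1781 with all 41155 rows. Member probe sets at an unadjusted p under 0.05 numbered 0, and 0 to 1 with single arrays left out: Nr4a1 without Ahr-KO replicate 1 and Nr4a2 without Ahr-KO replicate 2. There was 1, Nr4a1, after quantile normalization, after median centring, and without both Ahr-KO replicate 1 and WT replicate 1, an alternative chosen after seeing the data. The cause was not tested.

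The sign of the log2 difference turned for Atf3 with a pseudocount of 16 (-0.001), array weights (-0.05), and with single arrays left out (-0.20 to 0.33, below 0 without Ahr-KO replicate 1, at -0.10, and without WT replicates 2 and 3, at -0.12 and -0.20). With single arrays left out it ranged from -1.01 to 1.79 for Jun, -0.67 to 0.41 for Junb, where it was 0.11 without WT replicate 1, and -0.37 to 0.078 for Nr4a3 (0.078 without Ahr-KO replicate 3), and over all fits without arrays it was -0.40 to 0.078 for Nr4a3, -1.27 to 0.30 for Jund probe set 17502001 and -1.06 to 0.27 for probe set 17510127. Without both replicates numbered 1, Jun was at -0.34. Nr4a1, Nr4a2, Fos, Fosb and Egr1 stayed higher in Ahr-KO under every alternative that tested them. The filters left 9 of the 11 probe sets, without Nr4a2 and Atf3.

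Deviations of same-numbered arrays correlated at 0.02, -0.06 and 0.01 over all annotated probe sets, so replicate numbers showed no pairing over probe sets as a whole. For the members, the mean log2 level was highest on the arrays numbered 1 of both genotypes, at 7.55 (Ahr-KO) and 7.46 (WT). The labels do not say whether a shared number stands for shared handling, and this was not tested. With the replicate number as a block, which leaves out WT replicate 4, 1 member probe set (Nr4a2) had an unadjusted p under 0.05 and 0 passed after adjustment. The median difference over the 10 genes was 0.15 to 0.83 with single arrays left out and 0.39 to 0.61 otherwise among the planned settings. Signal over background limits Atf3 (above the mark on 0 of 7 arrays), Nr4a2 (2), Jun (4), Nr4a1 (5) and Nr4a3 (6).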

Other observations

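Ahr-KO replicate 2 held the maximum of none of the 10 factors and of 8 of the 35 other immediate early genes measured, and of 13.4% of all genes. The genes named here were picked after their values were seen and got no test. Maff, which encodes a small bZIP protein, stood at 1066 there and at 23.7 to 105.9 on the other 6 arrays. Gadd45g, a growth arrest gene, stood at 507 against 11.3 to 115, and Klf2, a Krüppel-like factor gene, at 138 against 15.4 to 34.2. Gadd45b, which also peaked there, stood at 234 on that array and at 224 on WT replicate 4. Zfp36l1 stood at 892 on Ahr-KO replicate 2 and at 41.7 to 394 elsewhere. Fos, by contrast, stood at 87.2 on that array, the lowest of its Ahr-KO values.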
